A study of Rattus norvegicus with 26 samples.

Results

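Cytosolic ribosomal proteins are the protein subunits of the ribosomes that translate nuclear-encoded messages outside the mitochondria. The genes described here are those of the array annotation whose symbol is Rpl or Rps followed by a digit, or Rplp0, Rplp1, Rplp2 or Rpsa, leaving out the Rps6k kinases, and each gene is given by its brightest probe over all arrays. This rule found 67 genes of 13337 genes with a named probe. They comprise 38 proteins of the large subunit, 23 of the small subunit, 4 paralogs or like genes (Rpl3l, Rpl22l1, Rpl36al1 and Rpl37l1) and 2 genes that match by name but are not subunits (Rpl7l1 and Rps19bp1). Another 16 subunit genes were not analysed here. A further 8730 probes have no gene name in the annotation used, and any of them that read a ribosomal protein gene or a relative of one are not among the members, so the counts below are of named members only.

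Each ribosome holds a single copy of nearly every one of these proteins, so their messages are abundant in any growing cell and tend to be regulated together. Their mRNAs usually begin with a cytosine and a run of pyrimidines, the terminal oligopyrimidine motif, through which growth signals control their translation. The heart grows before birth mainly by division of its muscle cells and later by enlargement of these cells, which is why ribosome content is followed in studies of cardiac development and hypertrophy. Few of the proteins have a paralog, and in mouse and human Rpl3l is the paralog of Rpl3 that is found in heart and skeletal muscle.

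Hearts of male rats of 2 inbred strains were measured, the stroke-prone spontaneously hypertensive rat (SHRSP), a model of high blood pressure with left ventricular hypertrophy, and the normotensive F344. The groups were SHRSP at week 14 (7 arrays), SHRSP at day 20 of fetal development, E20 (4 arrays), F344 at week 14 (8 arrays) and F344 at E20 (7 arrays), with 1 heart per array and no treatment named for any group. In the study's methods, week 14 RNA is of left ventricular free wall and was extracted with TRIzol, and E20 RNA is of the ventricles, atria removed, and was extracted with an RNeasy kit. The sample labels instead give TRIzol for all hearts and the whole heart for E20. Hence stage cannot be told apart from tissue and kit when week 14 is set against E20, and with 1 inbred strain as the model of hypertension, blood pressure cannot be told apart from the rest of its genome.

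The values are log2 intensities of Illumina RatRef-12 BeadChips with 22523 probes, quantile-normalized by the authors. They ran from 6.64 to 15.53 with a median of 7.16. Heart muscle markers were high on all arrays, the mean of 7 measured markers lying between 12.23 and 12.64 at week 14 and between 11.76 and 12.05 at E20. Of the 2 measured atrial markers, Myl7, the atrial myosin light chain, averaged 7.82 ± 0.26 in SHRSP at week 14 (SD, n = 7), 14.06 ± 0.26 in SHRSP at E20 (n = 4), 11.58 ± 0.62 in F344 at week 14 (n = 8) and 14.04 ± 0.24 in F344 at E20 (n = 7). Nppa, the atrial natriuretic peptide that ventricles also make under load, averaged 14.20, 13.07, 11.42 and 12.87 in the same groups. Differences were tested with limma on the whole array, with Benjamini & Hochberg adjustment, and a gene was called at an adjusted p under 0.05. All differences are on the log2 scale, where 1 is a doubling.

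Ribosomal protein genes were among the brightest on the arrays. Their median over genes of the mean level was 12.97, the 98.9th percentile of all probes, and 53 of the 67 genes lay in the top 10% of probes, above 9.56. The 6 genes Rpl11, Rpl12, Rpl34, Rpl36a, Rplp2 and Rps19 averaged under 7.5, close to the median of all probes, where background signal can hide a difference. Levels of different probes are not comparable as amounts of RNA, and ribosomal protein genes have many processed copies in mammalian genomes, so that a probe may also read a copy, which was not tested.

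Start sites of 55 members could be looked up in RefSeq (build GRCr8). A cytosine at the start followed by at least 4 cytosines or thymines was found at 21 of these 55 starts (38.2%) and at 2.63% of all 33469 starts of the same table. Within 5 bases of the start on either side, such a run was present in 32 members (58.2%), against 17% of all starts. The motif stood at the start of 21 of 50 subunit genes and of 0 of the 5 paralogs, like genes and non-subunits with a sequence. The sequences below are of 10 of the members described below, chosen to show starts with and without the run. They give 15 bases before and 15 bases from the start. Where a match lies within 5 bases of the start, the one nearest to it is in capitals.
Rpl31 (chr9:49143096-49143125, plus strand): ccacaatccctcgcgCCTTTCCTTTCCaac
Rps18 (chr20:4933730-4933759, plus strand): cacgtcacttccgctCTCTCTTCCacagga
Rpl22 (chr5:168117946-168117975, plus strand): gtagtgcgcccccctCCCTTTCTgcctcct
Rps23 (chr2:23814502-23814531, plus strand): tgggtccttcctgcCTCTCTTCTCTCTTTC
Rps24 (chr16:96502-96531, plus strand): tgagcggtcctcttttCCTCCTTTacagct
Rpl3 (chr7:113507976-113508005, minus strand): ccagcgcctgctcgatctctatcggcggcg
Rps12 (chr1:23500060-23500089, plus strand): gcacagaagcccagcagagcgcttaaatac
Rps16 (chr1:92770643-92770672, plus strand): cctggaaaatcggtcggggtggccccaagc
Rpl22l1 (chr2:113683181-113683210, plus strand): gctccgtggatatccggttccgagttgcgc
Rpl3l (chr10:14258431-14258460, plus strand): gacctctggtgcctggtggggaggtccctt
The capitals begin at the first base in Rpl31, Rps18 and Rpl22, at the base before it in Rps23 and at the base after it in Rps24. In Rps18, Rpl22, Rps23 and Rps24 cytosines or thymines also stand directly before the capitals, so the whole run begins earlier. No match was found near the listed starts of the subunit genes Rpl3, Rps12 and Rps16 or of the paralogs Rpl22l1 and Rpl3l. In Rpl3 a short run of thymines and cytosines does stand at the start. It begins with a thymine, and too few follow its first cytosine for a match. Annotated starts can lie some bases off, and a match is a description of the letters only.

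Nearly all ribosomal protein genes were lower at week 14 than at E20 in both strains. In SHRSP 59 of 67 were called lower (88.1%), where 17% of all probes were called lower, and 4 were called higher, where 15.7% of all probes were. In F344 55 were called lower (82.1%), where 18.6% of all probes were, and 4 were called higher, where 17.2% of all probes were. The median difference was -0.68 in SHRSP and -0.46 in F344, and the median over all probes was 0 in both. Shares of all probes, here and below, include dim probes, since no detection filter was set. The members are brighter than most probes, which these comparisons do not allow for. In 54 genes the call was lower in both strains, and Rps24, Rpl3l, Rpl22l1 and Rps29 were called higher in both. Rpl12, Rpl37l1, Rps15, Rps20 and Rps21 were called lower in SHRSP only and Rpl36a in F344 only, although for none of these 6 was the stage difference shown to differ between strains. The 3 genes called in neither strain, Rpl11, Rps19 and Rpl34, all belong to the 6 dim ones. From bulk RNA, fewer cells of a type with many ribosomes and less ribosomal protein RNA in each cell cannot be told apart.

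**Figure D1:**
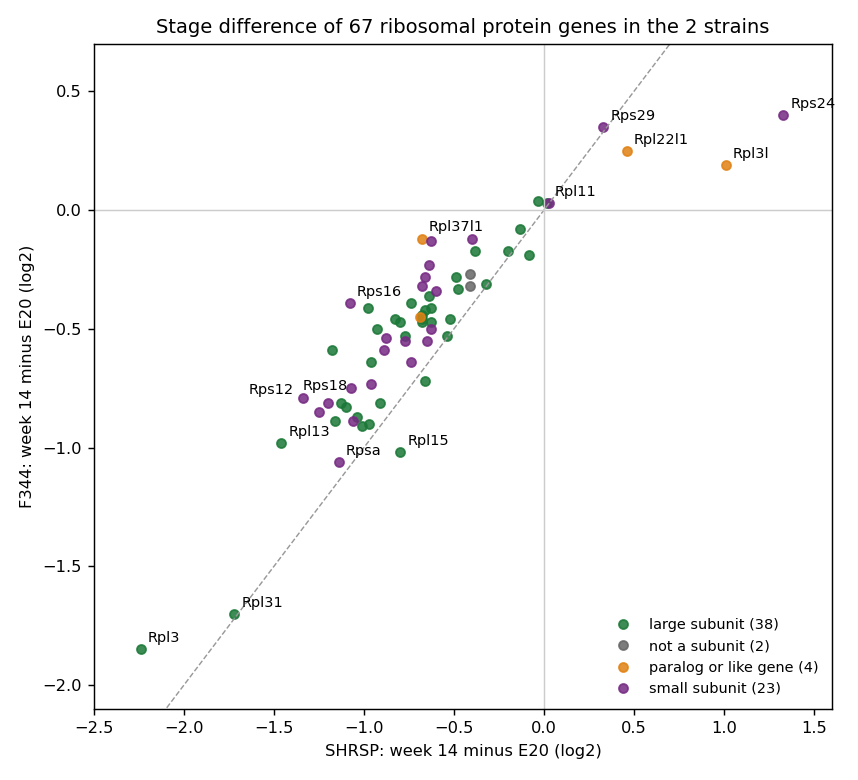
Difference between week 14 and E20 (log2 scale) of each of the 67 genes in SHRSP (horizontal axis) and F344 (vertical axis), coloured by class, with equal differences on the dashed line. Most genes lie in the lower left corner, Rpl3 farthest out at -2.24 and -1.85, and Rps24 and Rpl3l lie to the right of the line at 1.33 and 1.01 in SHRSP.

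The separation was visible on single arrays. Averaged over the 61 members that were not dim, SHRSP arrays lay between 12.13 and 12.29 at week 14 (mean 12.18 ± 0.05, SD, n = 7), and the 4 of E20 at 12.89, 12.91, 12.93 and 12.95. F344 arrays lay between 12.11 and 12.36 at week 14 (12.21 ± 0.08, n = 8) and between 12.51 and 12.91 at E20 (12.74 ± 0.14, n = 7). The stages did not overlap in either strain. Replicates 2 and 4 of F344 at E20 were the lowest E20 arrays, at 12.51 and 12.59. On these 2 arrays proliferation markers averaged 10.03 and 10.07, against 9.77 to 9.98 on the other E20 arrays of F344. The same 2 arrays were also highest in fibroblast markers (11.31 and 11.25, others 11.01 to 11.20) and lowest in macrophage markers (7.73 and 7.80, others 7.94 to 8.10) and erythroid markers (9.05 and 9.12, others 9.20 to 9.47). The part of these lists in the low values was not tested. With both arrays left out, a choice made after seeing the data, 58 members were lower and 3 higher in F344, and the median difference was -0.53. The share of all probes was not counted without these arrays. With all arrays it was 18.6% lower and 17.2% higher.

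**Figure D2:**
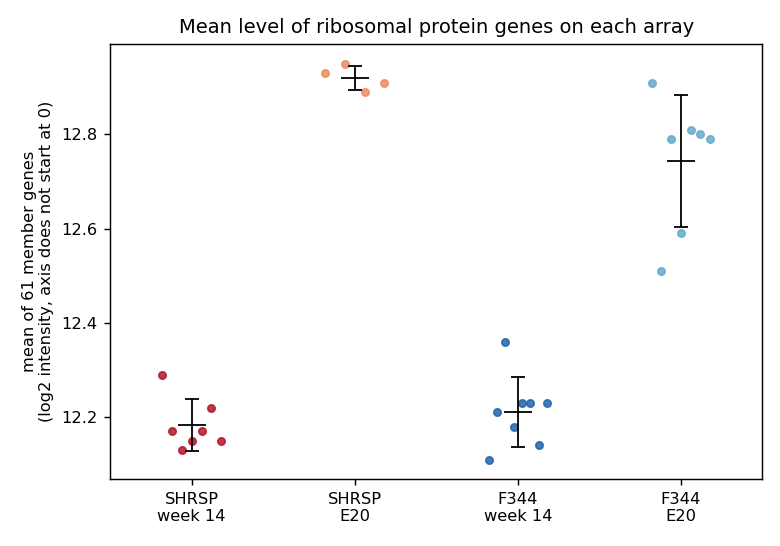
Mean log2 intensity of the 61 members above 7.5 on each array (points), with group mean and SD (bars), by strain and stage. All week 14 arrays lie at 12.36 or below and all E20 arrays at 12.51 or above, with 2 F344 arrays at E20 under the rest of their group.

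Gene by gene, every week 14 array lay under every E20 array for 53 of the 67 genes in SHRSP, where this held for 13.3% of all probes, and for 28 in F344, where it held for 9.41%. The spread between arrays was wider in F344 at E20, with a median SD over members of 0.21, than in the other groups (0.11 to 0.14). The authors had left out arrays that correlated poorly with their group, by the paper's animal numbers mostly from SHRSP at E20. Spread and overlap are thus those of arrays kept for likeness. Rpl37l1 varied most among the members in F344 at E20, with an SD of 0.68. Among all probes the median SD was 0.06 to 0.08.

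Lists that mark other processes and cells also differed between the stages. Of 9 proliferation genes measured, 8 were lower at week 14 in each strain and 1 was higher in F344, their mean lying at 7.63 to 7.87 on week 14 arrays and 9.77 to 10.07 on E20 arrays. Of 9 macrophage markers, 9 were higher at week 14 in each strain, with means of 8.84 to 9.87 on week 14 arrays and 7.73 to 8.10 on E20 arrays. Erythroid markers were lower at week 14 in 4 of 9 (SHRSP) and 5 of 9 (F344), with means of 8.22 to 8.58 at week 14 and 9.01 to 9.47 at E20. Of 8 fibroblast markers, 5 were lower and 3 higher at week 14 in each strain, with means of 10.01 to 10.54 at week 14 and 11.01 to 11.31 at E20. Their part in the fall of the ribosomal protein genes was not tested.

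In the large subunit 35 of 38 genes were lower at week 14 in each strain (92.1%) and none was higher. Among all probes 17% were lower and 15.7% higher in SHRSP, and 18.6% were lower and 17.2% higher in F344. Rpl3, which lies close to the peptidyl transferase centre, had the lowest difference of all members. Its log2 intensity ran from 12.41 to 13.04 with a median of 12.69 on SHRSP arrays of week 14, against 14.82, 14.89, 14.94 and 15.11 at E20. In F344 it ran from 12.54 to 13.31 with a median of 13.01 at week 14 and from 14.66 to 15.01 with a median of 14.81 at E20. Week 14 and E20 were about 2 units apart in both strains with no overlap. The difference was -2.24 in SHRSP (SE 0.11, adjusted p = 4.8e-15 from limma), a 4.73-fold lower signal, and -1.85 in F344 (SE 0.09, adjusted p = 3.4e-15). E20 levels of Rpl3 were close to the top of the scale, 15.53, so the difference may be compressed.

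Rpl31, a protein near the exit of the nascent peptide, had the second lowest difference of the members and was alike in both strains. At week 14 its level ran from 8.31 to 8.83 in SHRSP and from 8.27 to 8.68 in F344, and at E20 it was 10.03 to 10.43 in SHRSP and 9.83 to 10.43 in F344. Every week 14 array was thus well under every E20 array. The difference was -1.72 in SHRSP (SE 0.10, adjusted p = 1.61e-13) and -1.70 in F344 (SE 0.08, adjusted p = 2.82e-15), and the interaction of strain and stage was -0.02 (unadjusted 95% interval -0.30 to 0.25).

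Of other large subunit genes named by rank, Rpl13 fell by 1.46 in SHRSP (SE 0.15, adjusted p = 8.37e-09) and by 0.98 in F344 (SE 0.12, adjusted p = 2.86e-07). Rpl15 averaged 8.10 ± 0.14 in SHRSP at week 14 (SD, n = 7) and 8.90 ± 0.08 at E20 (n = 4), a difference of -0.80 (SE 0.09, adjusted p = 5.42e-08). In F344 it averaged 8.01 ± 0.20 at week 14 (n = 8) and 9.04 ± 0.13 at E20 (n = 7), a difference of -1.02 (SE 0.08, adjusted p = 1.2e-11). Rpl5 and Rpl11 carry the 5S ribosomal RNA into the large subunit and restrain Mdm2 when assembly fails. Rpl5 fell by 1.01 in SHRSP and 0.91 in F344. The probe of Rpl11 stayed between 6.84 and 7.14 on all 26 arrays, which leaves the particle measured by 1 of its 2 proteins only.

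The stalk proteins Rplp0, Rplp1 and Rplp2, which draw elongation factors to the ribosome, were called lower at week 14 in both strains. Rplp1 stood at 12.98 ± 0.17 (SD, n = 7) in SHRSP at week 14 and 13.73 ± 0.05 (n = 4) at E20, and at 13.21 ± 0.17 (n = 8) in F344 at week 14 and 13.60 ± 0.20 (n = 7) at E20. These are differences of -0.74 (adjusted p = 9.09e-07) and -0.39 (adjusted p = 0.000438). Rplp0 had -0.48 and -0.33 (adjusted p of 0.000345 and 0.00193), with 2 SHRSP arrays of E20 at 15.53, the highest value on the scale, so its difference in SHRSP may be understated. Rplp2, one of the dim probes, had -0.20 in SHRSP and -0.17 in F344 (adjusted p of 0.027 and 0.0268). Its call was lost without any 1 of 4 arrays in SHRSP (week 14 replicates 5 and 6, E20 replicates 1 and 3, adjusted p of 0.0521 to 0.0985) and of 4 in F344 (E20 replicate 6, week 14 replicates 4, 7 and 8, adjusted p of 0.0546 to 0.0685).

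In the small subunit 20 of 23 genes were lower (87.0%) and 2 higher (8.7%) at week 14 in SHRSP, where 17% and 15.7% of all probes were. In F344 17 were lower (73.9%) and 2 higher (8.7%), where 18.6% and 17.2% of all probes were. Rps12, a protein of the beak of the small subunit, ran from 10.40 to 11.18 in SHRSP at week 14 with a median of 10.60, against 11.74, 11.77, 12.14 and 12.25 at E20. In F344 it ran from 10.59 to 11.13 at week 14 and from 11.08 to 12.20 at E20. The stages were apart in SHRSP and overlapped slightly in F344, and the difference was -1.34 in SHRSP (SE 0.16, adjusted p = 1.8e-07) and -0.79 in F344 (SE 0.14, adjusted p = 2.68e-05).

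Rps26, which lines the exit of the mRNA channel, ran from 12.43 to 13.05 in SHRSP at week 14 and from 13.76 to 14.24 at E20, and from 12.58 to 12.91 in F344 at week 14 and from 13.27 to 13.97 at E20. It fell by 1.25 in SHRSP (SE 0.12, adjusted p = 2.35e-09) and by 0.85 in F344 (SE 0.10, adjusted p = 6.39e-08), without overlap. Rpsa, known also as the laminin receptor, ran from 13.17 to 13.64 in SHRSP at week 14 and from 14.46 to 14.67 at E20. It fell by 1.14 in SHRSP (SE 0.10, adjusted p = 2.45e-10) and by 1.06 in F344 (SE 0.08, adjusted p = 2.02e-11). Rack1, a scaffold bound to the small subunit that the naming rule does not cover, fell by 1.06 in SHRSP and 1.08 in F344.

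Of 17 measured genes in which mutations cause Diamond-Blackfan anaemia in human, 13 were lower (76.5%) and 2 higher (11.8%) at week 14 in SHRSP. In F344 12 were lower (70.6%) and 2 higher (11.8%). The 2 higher ones were Rps24 and Rps29. Among all 67 members 88.1% were lower in SHRSP and 82.1% in F344, and 5.97% were higher in each strain. Among all probes 17% and 18.6% were lower and 15.7% and 17.2% were higher. Rps19, the gene of the anaemia list most often affected in patients, lay between 6.94 and 7.21 on all arrays and was called in neither strain. Background signal can hide a difference at this level.

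Rps29, a zinc-binding protein of the head of the small subunit, was higher at week 14 in both strains. Its level ran from 13.32 to 13.54 with a median of 13.39 in SHRSP at week 14, against 12.84, 13.06, 13.18 and 13.22 at E20. In F344 it ran from 13.19 to 13.37 at week 14 and from 12.47 to 13.25 at E20. The stages did not overlap in SHRSP and did in F344. The difference was 0.33 in SHRSP (SE 0.11, adjusted p = 0.0211) and 0.35 in F344 (SE 0.09, adjusted p = 0.0032), and the call in SHRSP was lost without SHRSP E20 replicate 3 (adjusted p = 0.12).

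Rpl22 and its paralog Rpl22l1 moved in opposite directions. In mouse, loss of Rpl22 is known to raise Rpl22l1, and whether the genes are linked here was not tested. Their Pearson's r over the 26 arrays was -0.444. Rpl22 ran from 12.93 to 13.25 in SHRSP at week 14 and from 13.86 to 13.94 at E20, a difference of -0.80 (SE 0.10, adjusted p = 2.39e-07), and had -0.47 in F344 (SE 0.08, adjusted p = 3.1e-05). The F344 groups of Rpl22 overlapped, with 13.12 to 13.39 at week 14 and 13.16 to 14.05 at E20. Rpl22l1 ran from 8.31 to 8.64 in SHRSP at week 14, against 7.92, 8.01, 8.08 and 8.15 at E20, a difference of 0.46 (SE 0.10, adjusted p = 0.000771). In F344 it ran from 8.08 to 8.47 at week 14 and from 7.5 to 8.24 at E20, a difference of 0.25 (SE 0.08, adjusted p = 0.0225) between groups that overlapped. This call was lost without F344 E20 replicate 2 or 4 or F344 week 14 replicate 2 (adjusted p of 0.0517 to 0.0611). Replicates 2 and 4 of F344 at E20, the arrays low for the whole family, gave the lowest values of Rpl22l1 in that group, 7.5 and 7.84, and without both the difference was 0.11 (adjusted p = 0.21).

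The like genes Rpl36al1 and Rpl37l1 followed the family where they were called. Rpl36al1 fell by 0.69 in SHRSP and by 0.45 in F344 (adjusted p of 0.000137 and 0.00153). Rpl37l1 had -0.68 in SHRSP and -0.12 in F344 (adjusted p of 0.0449 and 0.738), with levels from 9.15 to 11.15 among F344 arrays of E20. Its call in SHRSP was lost without any 1 of 10 arrays (from SHRSP replicates 1, 5, 6 and 7 of week 14 and 3 and 4 of E20, from F344 replicates 4 and 6 of week 14 and 6 and 7 of E20), with adjusted p of 0.0501 to 0.164. Rpl7l1, a nucleolar protein of large subunit assembly, and Rps19bp1, a nucleolar partner of Rps19, are not subunits and were also lower. Rpl7l1 had -0.41 in SHRSP and -0.32 in F344 (adjusted p of 0.022 and 0.0296), calls that were lost without SHRSP E20 replicate 3 or 4 (0.0941 and 0.119) and without F344 E20 replicate 5, 6 or 7 or F344 week 14 replicate 1 (0.0651 to 0.0783). Rps19bp1 had -0.41 and -0.27 (adjusted p of 5.32e-08 and 1.92e-06), with no overlap between stages in either strain.

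Rpl3l, the paralog of Rpl3, was higher at week 14, and mainly in SHRSP. Its level ran from 8.84 to 9.16 with a median of 8.92 on SHRSP arrays of week 14, against 7.90, 7.93, 7.94 and 8.07 at E20. In F344 it ran from 7.66 to 8.12 with a median of 7.94 at week 14 and from 7.70 to 7.81 with a median of 7.75 at E20. Only SHRSP at week 14 stood apart from the other 3 groups. The difference between stages was 1.01 in SHRSP (SE 0.07, adjusted p = 7.23e-12) and 0.19 in F344 (SE 0.06, adjusted p = 0.0134), and the interaction of strain and stage was 0.83 (SE 0.09, adjusted p = 8.35e-07). At week 14 SHRSP was 1.04 above F344 (SE 0.06, adjusted p = 3.06e-13), a 2.06-fold higher signal, and at E20 the strains differed by 0.21 (adjusted p = 0.134).

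Rps24, a protein of the body of the small subunit, had a similar pattern. It ran from 9.78 to 10.16 with a median of 9.83 in SHRSP at week 14, against 8.44, 8.56, 8.61 and 8.71 at E20. In F344 it ran from 8.49 to 8.88 at week 14 and from 8.16 to 8.39 at E20. SHRSP arrays of week 14 lay above all others. The stages differed by 1.33 in SHRSP (SE 0.07, adjusted p = 2.18e-14) and 0.40 in F344 (SE 0.06, adjusted p = 3.19e-06), with an interaction of 0.93 (SE 0.09, adjusted p = 9.6e-08). The strains differed by 1.26 at week 14 (SE 0.06, adjusted p = 5.81e-15) and by 0.33 at E20 (SE 0.07, adjusted p = 0.00569).

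**Figure D3:**
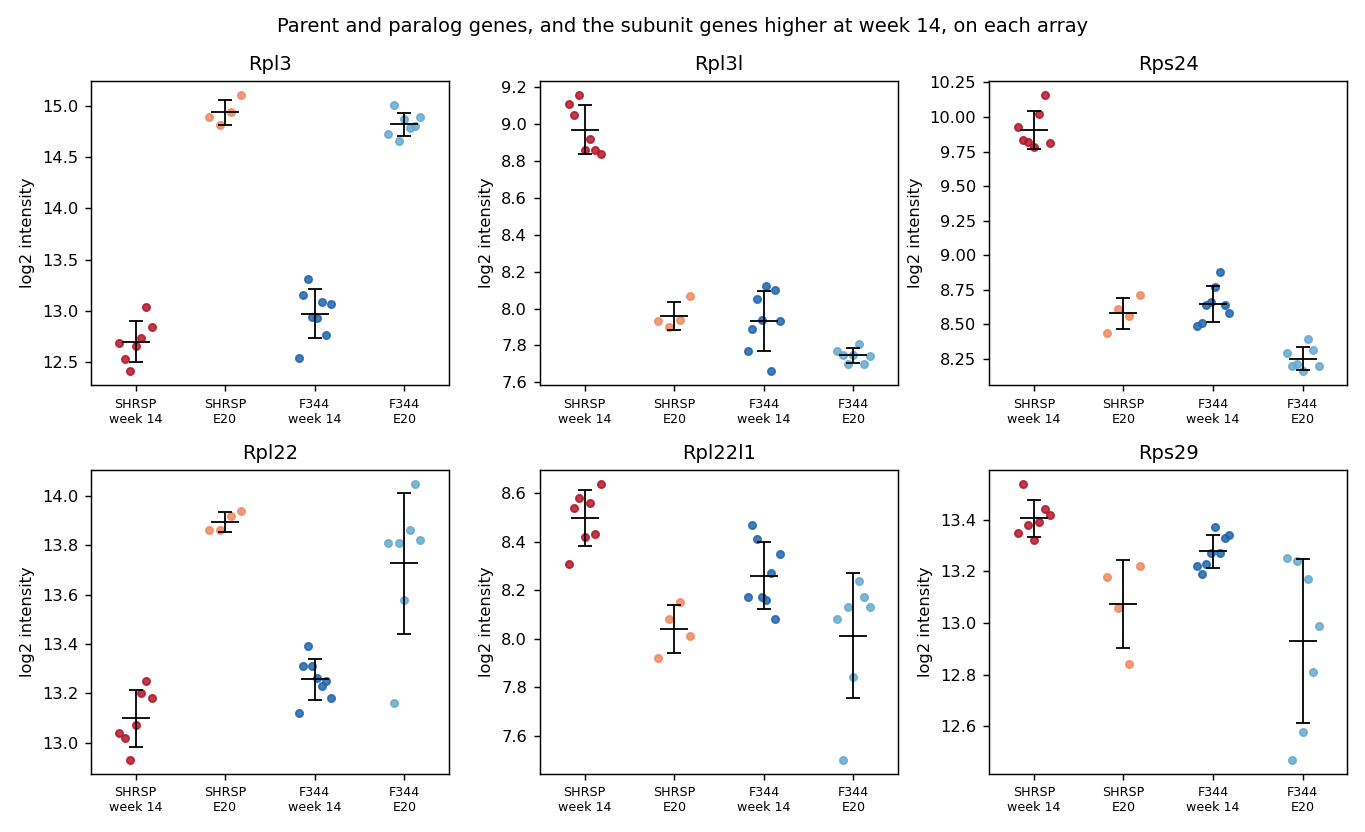
Log2 intensity of Rpl3, Rpl3l, Rps24, Rpl22, Rpl22l1 and Rps29 on each array (points), with group mean and SD (bars), by strain and stage. Rpl3 and Rpl22 are lower at week 14 in both strains, and Rpl3l and Rps24 are raised on the 7 SHRSP arrays of week 14. In F344 the stages of Rpl22, Rpl3l, Rpl22l1 and Rps29 overlap.

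The pattern of Rpl3l and Rps24 was shared by many probes of unrelated genes. Over the 26 arrays the 2 probes had a Pearson's r of 0.958 with each other, and no other member had r over 0.9 with Rpl3l. Outside the members the probes most like Rpl3l were those of the smell receptor Or5aq7b (0.986), an unnamed probe (0.983), Slc24a4 (0.983), Tnn (0.983) and another unnamed probe (0.982). In all, 224 other probes had r over 0.9 with Rpl3l, 144 of them named. Of the named ones 15 were receptors of smell, taste or pheromones, of 1311 such named probes on the array, and their mean was 8.69 to 8.96 on SHRSP arrays of week 14, 7.81 to 7.95 on SHRSP arrays of E20, 7.81 to 8 on F344 arrays of week 14 and 7.64 to 7.72 on F344 arrays of E20. Among 361 probes called higher in SHRSP at week 14 by over 0.5, 211 had r over 0.9 with Rpl3l or Rps24. These probes were picked by likeness after the values were seen, and the arrays share strain and stage, so the figures are descriptions. Whether the Rpl3l and Rps24 probes read their own transcripts on these arrays was not tested. Likewise over 26 arrays, the named genes outside the members most like the mean of the subunits were Siva1 (r of 0.991), Dctpp1 (0.982), Gpr15lg (0.981), Mif (0.980) and Crygd (0.980), which all had differences of -1.35 or below between week 14 and E20 in both strains.

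Between the strains few ribosomal protein genes differed at week 14. In SHRSP 5 of 67 were called higher (7.46%) than in F344, where 4.49% of all probes were, and 4 were called lower (5.97%), where 4.46% of all probes were. The median difference was -0.06. The higher ones were Rps24, Rpl3l, Rps16, Rps23 and Rpl17, and the lower ones were Rps18, Rps6, Rpl19 and Rpl10. At E20 4 were called higher in SHRSP (5.97%), where 1.55% of all probes were, and 1 was called lower (1.49%), where 1.66% were, with a median of 0.14. These were Rps16, Rps23, Rps24 and Rpl17 on the higher side and Rps18 on the lower side, all of which were also called in the same direction at week 14. The count of lower members at week 14 was 2 without SHRSP week 14 replicate 4 or 7 or F344 week 14 replicate 3 and 7 without F344 week 14 replicate 1, and the count of higher members at E20 was 9 without F344 E20 replicate 1. At week 14 the 2 measured atrial markers went opposite ways. Myl7 was lower in SHRSP, with a difference of -3.76 (adjusted p = 5.09e-14), and Nppa was called higher. The mean of 8 lymphocyte markers was 7.22 to 7.41 on SHRSP arrays and 7.67 to 8.11 on F344 arrays. The part of these markers in the strain differences was not tested. Each member is given by 1 probe, and whether the strains differ in sequence under a probe was not tested either. The strain differences here and below are thus differences in probe signal.

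Rps16, whose tail contacts the transfer RNA in the P site, was higher in SHRSP at both stages. At week 14 it ran from 8.09 to 8.41 with a median of 8.25 in SHRSP and from 7.06 to 7.44 with a median of 7.30 in F344. At E20 it was 9.11, 9.34, 9.36 and 9.40 in SHRSP and ran from 7.53 to 7.77 with a median of 7.66 in F344. The strains did not overlap at either stage. The difference was 0.94 at week 14 (SE 0.06, adjusted p = 1.05e-12) and 1.64 at E20 (SE 0.07, adjusted p = 1.97e-15), a 3.11-fold higher signal. In F344 all week 14 arrays lay under 7.5 and near the median of all probes, and those of E20 were little above it, so that the strain differences, the fall in F344 and the interaction rest on a probe close to background there and the strain differences may be understated. Rps16 fell by 1.08 in SHRSP and 0.39 in F344, and it was the only member called lower in the interaction (-0.70, SE 0.09, adjusted p = 6.73e-06).

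Rps18, a protein of the head of the small subunit, was lower in SHRSP at both stages. At week 14 it ran from 12.21 to 12.80 with a median of 12.37 in SHRSP and from 13.29 to 14.06 with a median of 13.70 in F344. At E20 it was 13.48, 13.59, 13.64 and 13.74 in SHRSP and ran from 14.15 to 14.81 in F344. Again the strains were apart on all arrays of a stage. The difference was -1.26 at week 14 (SE 0.10, adjusted p = 3.45e-10) and -0.87 at E20 (SE 0.12, adjusted p = 2.93e-05), and the stage difference was not shown to differ between strains (interaction -0.39, unadjusted 95% interval -0.72 to -0.06, adjusted p = 0.289).

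Rps23, a protein at the decoding centre, ran from 11.67 to 12.21 in SHRSP at week 14 and from 11.20 to 11.63 in F344. At E20 it was 12.92, 12.96, 12.98 and 13.08 in SHRSP and ran from 11.79 to 12.74 in F344, where replicate 1 lay above the rest. It was higher in SHRSP by 0.53 at week 14 (SE 0.10, adjusted p = 0.0004) and by 0.85 at E20 (SE 0.12, adjusted p = 2.48e-05), with no overlap. Rpl17, which lines the peptide exit tunnel, was higher by 0.32 at week 14 (SE 0.05, adjusted p = 6.55e-05) and by 0.26 at E20 (SE 0.06, adjusted p = 0.0175). Its groups overlapped at week 14 and not at E20. At E20 the call of Rpl17 was lost with SHRSP replicate 2 or 3 left out (adjusted p of 0.0591 and 0.0985), and also without both F344 replicates 2 and 4 (0.0643).

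**Figure D4:**
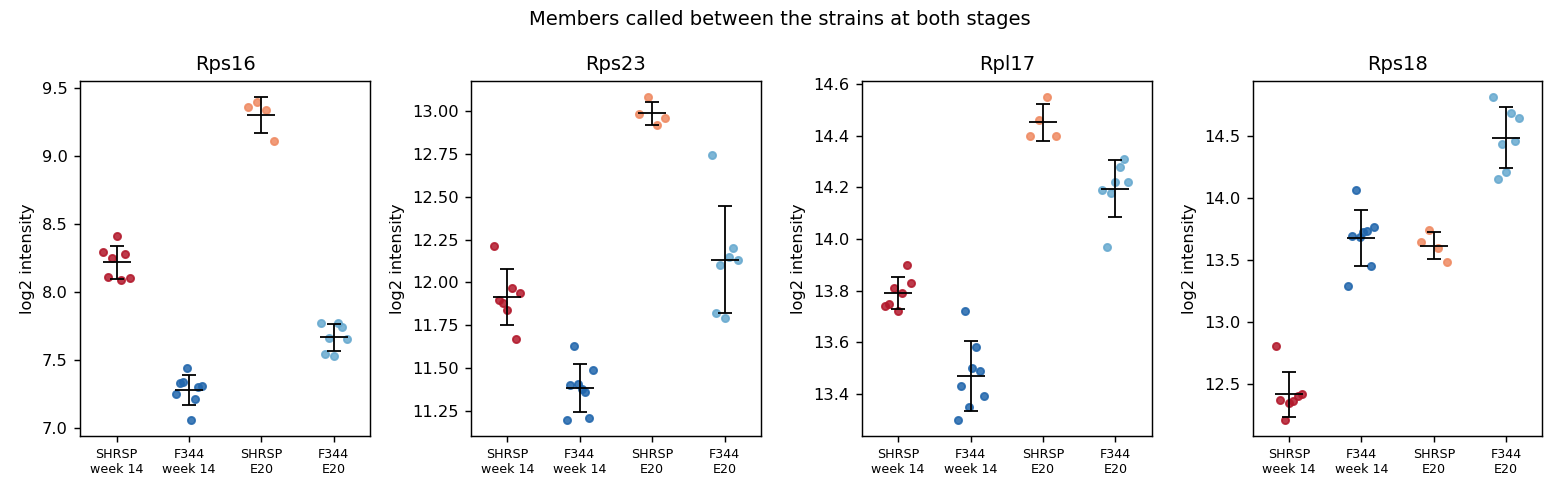
Log2 intensity of Rps16, Rps23, Rpl17 and Rps18 on each array (points), with group mean and SD (bars), SHRSP beside F344 at week 14 and at E20. Rps16 and Rps23 are higher and Rps18 is lower in SHRSP at both stages without overlap, and Rpl17 shows the smallest gap of the 4.

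The other 3 genes lower in SHRSP at week 14 differed by little. Rps6, the target of the ribosomal S6 kinases, ran from 13.08 to 13.25 in SHRSP and from 13.23 to 13.74 in F344, a difference of -0.26 (SE 0.06, adjusted p = 0.00341). Rpl19 had -0.16 (SE 0.05, adjusted p = 0.0404) and Rpl10, among the last proteins to join the large subunit, had -0.16 (SE 0.05, adjusted p = 0.0278), both with overlapping groups. The call of Rpl19 was lost without any 1 of 9 arrays (SHRSP week 14 replicates 2, 3, 4 and 7, F344 week 14 replicates 3, 5, 6, 7 and 8, adjusted p of 0.0545 to 0.116) and that of Rpl10 without any 1 of 5 (SHRSP week 14 replicates 4, 5 and 7, F344 week 14 replicates 1 and 3, 0.0561 to 0.0794). Close to the threshold were Rpl3 (-0.27, adjusted p = 0.0641) and Rpl22l1 (0.24, adjusted p = 0.091). Rpl3 was called lower in SHRSP without SHRSP week 14 replicate 6 or F344 week 14 replicate 1 or 7 (adjusted p of 0.00764 to 0.0396) and under 3 other settings given with the alternatives. Rpl22l1 was called higher without F344 E20 replicate 2 (0.0148) and with only the groups compared (0.0258).

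The stage difference was tested for a difference between strains in each member. Rps24 and Rpl3l were called higher in the interaction, 2 of 67 (2.99%), where 1.94% of all probes were, and Rps16 was called lower, 1 of 67 (1.49%), where 1.02% of all probes were. The median over members was -0.22, and that over all probes was 0. The difference was more negative in SHRSP for 60 of 67 members, of which only Rps16 passed the test. All members were read on the same arrays, so the 60 are not separate observations. The count of lower members was 2 without F344 E20 replicate 1 or 6 and 3 without F344 week 14 replicate 1. Without replicates 2 and 4 of F344 at E20 the median was -0.16, with 3 members called higher and 1 lower. The third was then Rpl22l1, at 0.35 (adjusted p = 0.0414).

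Genes that serve the ribosome were lower at week 14 as well, in smaller shares, beside 17% of all probes lower and 15.7% higher in SHRSP and 18.6% lower and 17.2% higher in F344. Of 13 measured elongation and termination genes 9 were lower in each strain and 1 was higher. Eef1a1, which brings aminoacyl-tRNA to the ribosome, fell by 1.51 in SHRSP (SE 0.07, adjusted p = 6.63e-16) and 1.26 in F344 (SE 0.06, adjusted p = 2.99e-16), and Eef2, which moves the ribosome along, fell by 0.67 and 0.79. Eef1b2 fell by 1.15 and 0.85 and Eef1e1 by 1.02 and 0.78. The higher member was Eef1a2, the form of Eef1a1 in muscle and neurons, which was 0.58 higher in both strains (adjusted p of 0.0032 and 0.000444) and is named after seeing its values. Of 27 initiation genes 15 were lower and 2 higher in SHRSP, and 14 were lower and 3 higher in F344. The helicase Eif4a1 fell by 1.44 in SHRSP and 1.06 in F344, its relative Eif4a2 was 0.81 and 0.76 higher, and Eif4ebp1, which holds back cap-dependent initiation, fell by 1.47 and 0.84.

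Of 55 genes of ribosome assembly, 40 were lower and 1 higher at week 14 in SHRSP, and 34 were lower and 1 higher in F344. Fbl, which methylates ribosomal RNA, fell by 1.52 in SHRSP (SE 0.14, adjusted p = 1.38e-09) and 1.05 in F344 (SE 0.12, adjusted p = 3.29e-08), and of the nucleolar proteins Nop58 fell by 1.25 and 1.09, Gar1 by 1.19 and 0.97 and Npm1 by 0.78 and 1.10. The higher one was Sbds, which helps to free the finished large subunit for use, 0.58 higher in SHRSP and 0.40 in F344, likewise named after seeing its values. Of 15 genes of RNA polymerase I, which transcribes ribosomal RNA, 6 were lower and 1 was higher in each strain, with Polr1d at -0.94 and -0.85.

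Of 15 genes of signalling to ribosomes, 3 were higher and 3 lower in SHRSP and 5 higher and 3 lower in F344, which apart from the higher ones in F344 is close to the shares of all probes. Mycn, a transcription factor of growth genes, fell by 0.68 in SHRSP and 1.45 in F344, and it differed between the strains in this (interaction 0.77, adjusted p = 0.00287). Maf1, a repressor of RNA polymerase III, was 0.68 and 0.38 higher (adjusted p of 0.00175 and 0.0275), the call in F344 being lost without any 1 of 7 arrays (replicates 1, 5, 6 and 7 of E20 and 1, 5 and 7 of week 14, 0.0531 to 0.0661). Proteins of the mitochondrial ribosome did not follow the cytosolic ones. Of 59 measured, 21 were higher and 8 lower at week 14 in SHRSP and 23 were higher and 11 lower in F344, with a median of 0.14 and 0.12. The shares of lower ones are close to those of all probes. Single members ranged widely, with Mrpl37 at 1.44 and 1.35 and Mrpl23 at -1.01 and -0.62.

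**Figure D5:**
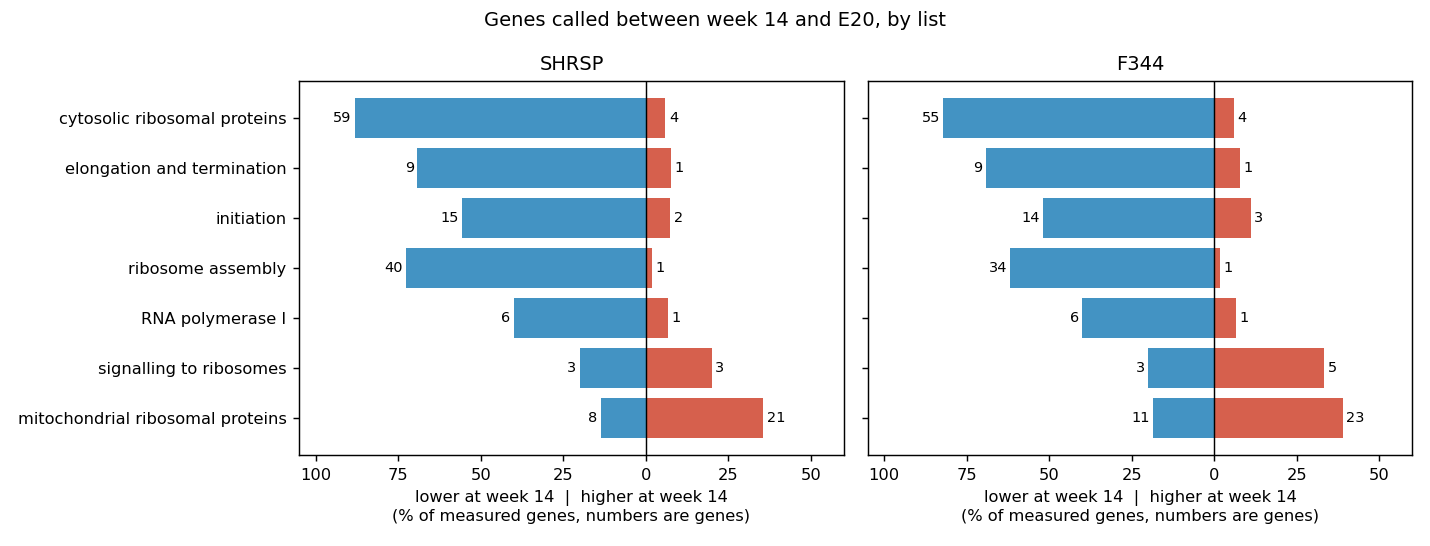
Share of measured genes called higher (right, red) or lower (left, blue) at week 14 than at E20, by list, in SHRSP (left panel) and F344 (right panel), with the number of genes at each bar. Cytosolic ribosomal proteins have 59 and 55 genes lower, and mitochondrial ribosomal proteins have more genes higher (21 and 23) than lower (8 and 11).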

How the data were processed

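The authors exported BeadChip intensities with GenomeStudio, left out arrays that correlated poorly with their group, and deposited log2 values after quantile normalization with lumi. These values were used as they are, for 22523 probes and 26 arrays. A background correction is not given in the sources used here. The raw table has 52 columns whose names match no sample, so it was not used and no detection filter was set. The array annotation names 1 gene for 13793 probes and none for 8730. Members were matched to RefSeq start sites by gene ID, and the motif was searched on the strand of the transcript.

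One mean per group was fitted with limma 3.58.1 (R 4.3.3), and p-values were adjusted across the array (Benjamini & Hochberg). Contrasts were week 14 minus E20 in each strain, SHRSP minus F344 at each stage, and their interaction. The code was tested on simulated data. The settings varied are listed in the closing section. Genes named are the 5 called members at either end of each contrast, paralogs with their parents, stalk proteins, non-subunits, members called in the interaction, the genes nearest by correlation and, of other lists, up to 4 genes called in both strains. Rpl5, Rpl11, Rps19, Rack1, Eef1a2 and Sbds, and the low or one-strain members, were picked after seeing their values. Members and lists were chosen with earlier results of these data known. Rpl41, Rpl36al1 and Rpl37l1 were classed after the files were seen. Replicates are separate hearts, and their number limits precision, most of all in SHRSP at E20 (4). The paper does not say how many litters the E20 hearts came from, and the fits took each heart as independent. Tables were made with pandas 2.3.3 and NumPy 2.4.6 under Python 3.11.15, and figures with Matplotlib 3.10.9.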

Additional observations from a re-analysis of the deposited data

Results flagged for a closer look

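Among 108 sets of values, the 4 groups of 26 named members and of the member mean, 8 held an array whose gap to its neighbours was large for a group of that size, where chance gives about 1 in 20. Rps18 on SHRSP week 14 replicate 1 was at 12.80, with the others at 12.21 to 12.42, and Rps12 on the same array was at 11.18, with the others at 10.40 to 10.70. Rpl31 on SHRSP week 14 replicate 6 was at 8.83, with the others at 8.31 to 8.52. Rpl7l1 on F344 week 14 replicate 1 was at 10.79, with the others at 11.09 to 11.30. F344 E20 replicate 1 stood apart in 3 genes, above the others in Rpl13 (11.70, others 10.67 to 11.11) and Rps23 (12.74, others 11.79 to 12.20) and below them in Rps6 (13.85, others 14.18 to 14.31). Rpl17 on F344 E20 replicate 2 was at 13.97, with the others at 14.18 to 14.31.

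For 3 members the stage difference differed between the strains by the test of the interaction in limma. It was 0.93 for Rps24, 0.83 for Rpl3l and -0.70 for Rps16.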

How the results depend on the processing

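The settings varied were a fit of the compared groups alone, the replicate number as a block, limma-trend, array weights, cyclic loess, centring on bright probes, a filter on low values, the mean over a gene's probes, the authors' fold limit of 1.5 on the log2 scale beside the adjusted p, and each array left out. No median over members turned its direction under them, and no named gene did so where it was called before or after the change. Small differences that were not called could change sign. With each array left out, Rpl37l1 between strains at week 14 ran from -0.116 to 0.038. Of 4537 values of named genes under an alternative, 4450 kept their side of the threshold, 69 lost the call and 18 gained one. Shares of all probes were not counted under these settings, so the counts of members below have none beside them. With the fold limit of 1.5, and counting named members only, 0 members were higher and 2 lower at week 14 in SHRSP, 0 higher and 2 lower in F344, 0 higher and 0 lower in SHRSP against F344 at week 14, 1 higher and 0 lower at E20, and 0 higher and 0 lower in the interaction. At this limit the paper lists Rpl17l1, a symbol not among the named members, as lower in SHRSP than in F344 at week 14. With the replicate block 2 members were lower in SHRSP at week 14, and Rps29 lost its call in SHRSP (adjusted p = 0.0765), as did Rpl37l1 (0.108), Rplp2 in F344 (0.0957), and Rpl19 (0.0574) and Rpl10 (0.0533) between strains at week 14. Of 33 same-numbered pairs of arrays, 12 had a correlation of their deviations over 0.1 (median 0.031, range -0.241 to 0.44). The replicate 1 arrays of F344 E20, SHRSP week 14 and SHRSP E20 had 0.338 to 0.44 with each other. F344 week 14 replicate 1 had -0.229 to 0.198 with these. The labels do not say whether same-numbered arrays belong together, and these correlations cannot settle it. Array weights gave 10 members higher in SHRSP at E20 and 2 lower in the interaction, and cyclic loess gave 2 lower in the interaction and took the calls of Rps29 (adjusted p = 0.0733) and Rpl37l1 (0.0529) in SHRSP. Rpl3 was called lower in SHRSP at week 14 under cyclic loess (0.0363), limma-trend (0.0483) and the filter on low values (0.0381), and limma-trend took the call of Rpl19 there (0.0816). With only the groups compared, the calls of Rpl19 (0.118) and Rpl10 (0.059) at week 14, Rpl7l1 in SHRSP (0.0559) and Rpl22l1 (0.0598) and Maf1 (0.0625) in F344 were lost, and Rpl22l1 at week 14 (0.0258) and Rpl3l at E20 (0.00368) were called higher in SHRSP. Array weights also gave Rpl3l (0.0413) and Rps19bp1 (0.0164) as higher in SHRSP at E20. With each array left out, members lower in SHRSP at week 14 numbered 2 (without SHRSP week 14 replicate 4 or 7 or F344 week 14 replicate 3) to 7 (without F344 week 14 replicate 1), members higher in SHRSP at E20 numbered 3 (without SHRSP E20 replicate 2) to 9 (without F344 E20 replicate 1), and members lower in the interaction numbered 1 to 3 (without F344 week 14 replicate 1). Leaving out F344 E20 replicates 2 and 4, an alternative chosen after seeing the data, gave 7 members lower in SHRSP at week 14, took the calls of Rpl17 at E20 (0.0643) and Rpl22l1 in F344 (0.21), and added calls for Rpl22l1 (0.00622) and Rpl22 (0.0347) at week 14, Rpl37l1 in F344 (0.0373) and Rpl22l1 in the interaction (0.0414). In the 6 members under 7.5 background signal can hide a difference or make it look smaller, although Rpl12, Rpl36a and Rplp2 were called between stages. Members near 15.53 may be compressed.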
